A study of Mus musculus with 24 samples.

Results

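Potassium channel genes were examined in nuclei of the mouse ventral hippocampus. The members were the genes whose symbol begins with Kcn and a further letter, without antisense transcripts, overlapping transcripts and pseudogenes and without the G-protein-coupled rectifiers Kcnj3, Kcnj6 and Kcnj9 and the glial rectifier Kcnj10, which left 90 of the 33902 genes in the count table. Single-nucleus RNA sequencing (snRNA-seq) compared 2 inbred strains, C57BL/6J (B6) and DBA/2J (D2). All animals were adult males of 10 to 16 weeks with no treatment named in the labels, and each strain had 2 libraries, each made from about 2 pooled animals. Counts of unique molecular identifiers (UMIs) had been summed over the nuclei of 17 cell types in each library. Differences between strains therefore rest on 2 libraries against 2, and strain cannot be told apart from anything else in which the pools differed.

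Potassium channels let potassium leave the cell and so pull the membrane back towards rest, which ends action potentials and sets how readily a neuron fires again. Most pore-forming subunits work with accessory subunits that change their gating or carry them to the membrane. In the hippocampus the voltage-gated Kv4 channels carry the A-type current of dendrites, Kcnq channels carry the M-current, calcium-activated channels carry the currents that follow a spike, and two-pore and inwardly rectifying channels set the resting potential of neurons and glia.

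Sums of the cell types were used for dentate granule neurons (Exc-DG), for excitatory neurons of CA1 in 3 clusters named for a gene (Exc-CA1-Galntl6, Exc-CA1-Fras1 and Exc-CA1-Camk2d), of CA3 (Exc-CA3) and in 3 further clusters (Exc-ENT, Exc-Gpc6 and Exc-Cdh12), for interneurons (Inh-MGE and Inh-CGE, named for the medial and caudal ganglionic eminence, and Inh-Lamp5), for Cajal-Retzius cells (CR-CR), and for astrocytes (NN-Astro), oligodendrocytes (NN-ODC), their precursors (NN-OPC), microglia (NN-MGC) and vascular and leptomeningeal cells (NN-VLMC). Libraries held 43048686 to 56452272 UMIs from 6312 to 8707 nuclei, and a single cell type in a library held from 139713 UMIs (CR-CR) to 11352265 (Exc-DG). Of 14 marker lists, each was highest in a cell type of its own name or class, except the list of Lamp5 and Ndnf, which was highest in CR-CR at a summed 661.9 CPM (UMIs scaled to one library total). The potassium channel genes took a mean of 1.97% of all UMIs in Exc-DG, a mean between 1.01% (Inh-Lamp5) and 1.97% (Exc-Gpc6) in the other neuronal types, 0.887% in NN-OPC and from 0.270% to 0.405% in the other non-neuronal types.

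Of the 90 genes, 64 reached a mean of 10 CPM in at least 1 cell type, 18 reached it in all 17 types, and 26 reached it in none. Among the 64, Exc-DG held the highest level of 10 genes, Exc-Gpc6 of 8, Inh-MGE of 6 and NN-MGC of 5, and every cell type held the highest level of at least 1 gene. Levels below are CPM after trimmed-mean scaling of all columns, given as the mean ± SD of the 4 libraries of both strains, and they are compared between cell types of 1 gene, not between genes. In snRNA-seq with introns retained, a level also depends on gene length.

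**Figure D1:**
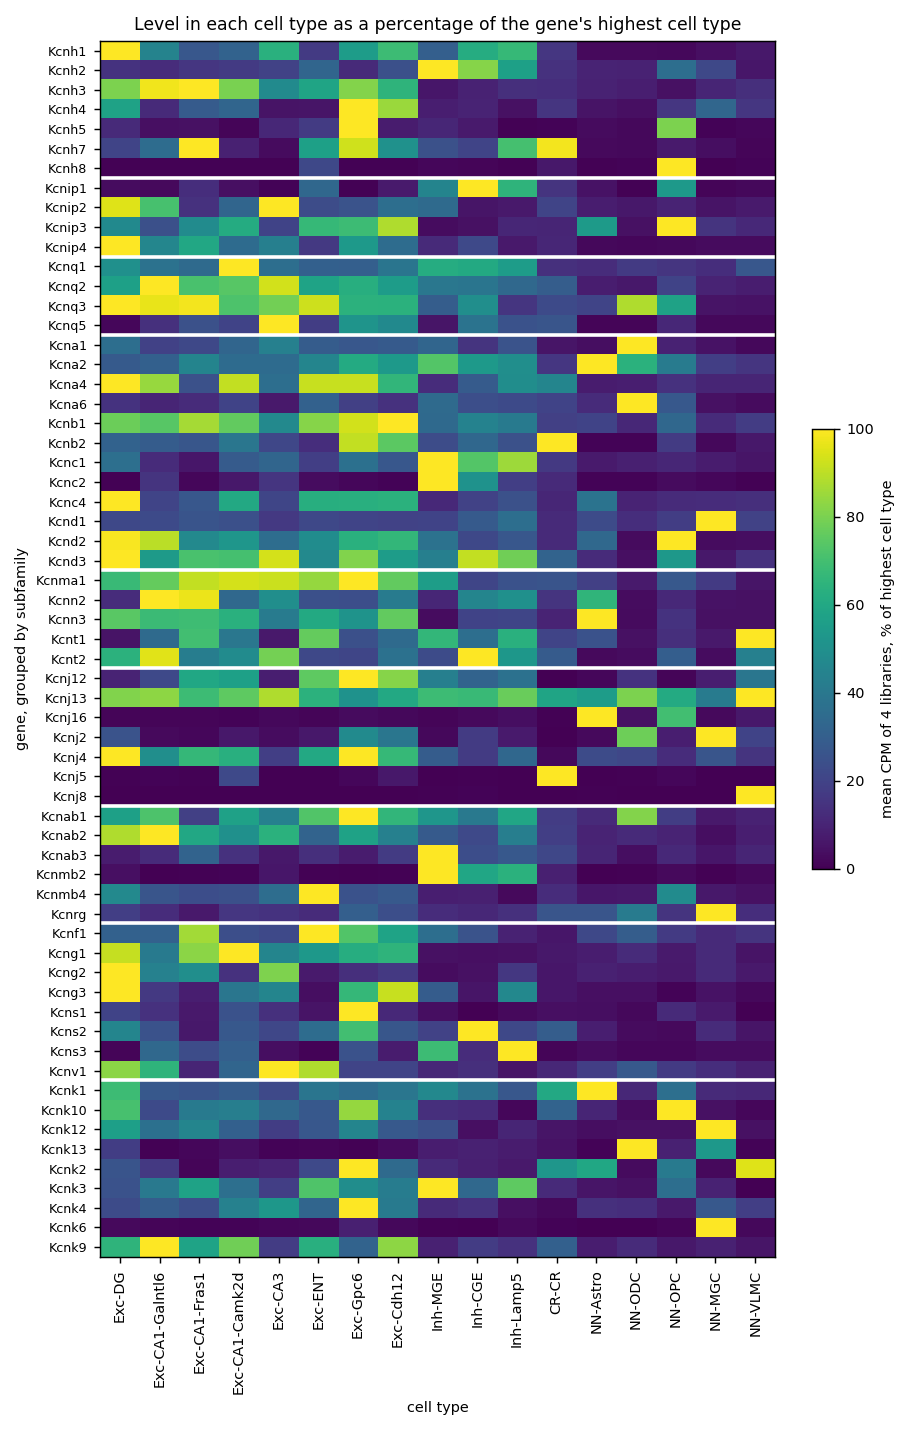
Mean CPM of each of 62 genes that reached 10 CPM in some cell type, drawn by colour as a percentage of that gene's highest cell type (rows, genes grouped by subfamily between white lines, and columns, cell types). Kcnmb2 is bright in the 3 interneuron columns, Kcnq5 in Exc-CA3 and dark in Exc-DG, Kcnj16 in NN-Astro and NN-OPC and Kcnk13 in NN-ODC and NN-MGC, and Kcnk6 and Kcnh8 are bright in a single non-neuronal column each.

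Among the pore subunits of voltage-gated channels, Kcnc1 and Kcnc2, fast delayed rectifiers of the Kv3 group, were highest in interneurons. Kcnc2 reached 2584 ± 542 CPM in Inh-MGE, 1317 ± 284 in Inh-CGE and 475.3 ± 93.4 in Inh-Lamp5, against 19.5 ± 3.0 in Exc-DG. Kcnc1 was 232.7 ± 9.1 in Inh-MGE, with 198.5 ± 18.2 in Inh-Lamp5 just under it. The Kv4 pore Kcnd2 was as high in oligodendrocyte precursors (3467 ± 259 CPM in NN-OPC) as in Exc-DG (3439 ± 325), and the ranges of those libraries overlapped. The axonal Kv1 pore Kcna1 was highest in oligodendrocytes, where its 4 libraries lay at 312.0 and 296.1 CPM in B6 and 294.0 and 313.3 in D2, and Exc-CA3 came next with 131.8 ± 2.6 CPM. Libraries of NN-ODC and Exc-CA3 did not overlap for that gene. Kcna6 was also highest in oligodendrocytes, with 128.7 ± 10.6 CPM in NN-ODC and 44.3 ± 6.9 in Inh-MGE.

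Kcnq5, an M-current subunit, differed widely between the fields of the hippocampus. In Exc-DG its libraries lay at 59.5 and 55.7 CPM in B6 and 89.9 and 82.6 in D2, while Exc-CA3 held 4157, 3902, 4268 and 4063 CPM in the same order. All 4 libraries of the granule cells were thus far below all 4 of CA3. Its level in Exc-DG was close to that in oligodendrocytes (53.3 ± 13.6 in NN-ODC), the lowest of the 17 types. Kcnq3, its usual partner, was 899.2 ± 58.8 CPM in Exc-DG and 792.7 ± 6.5 in NN-ODC.

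The Kcnip genes encode small calcium-binding proteins (KChIPs) that sit on Kv4 channels, and one of them, Kcnip3, is also known as the transcriptional repressor DREAM. Kcnip4 was highest in Exc-DG, at 12197 ± 785 CPM, which was 1.67 times the next type, Exc-CA1-Fras1, and the libraries of the 2 types did not overlap. Kcnip1 was highest in Inh-CGE (540.3 ± 43.9) and next in Inh-Lamp5. Kcnip2 was about equal in Exc-CA3 (127.8 ± 14.97) and Exc-DG (121.6 ± 22.5). Kcnip3 was highest in NN-OPC (256.9 ± 54.7) and Exc-Cdh12, whose libraries overlapped, and lowest in Inh-MGE (8.74 ± 5.26).

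Other genes were highest in non-neuronal types or in Cajal-Retzius cells. Kcnj16, a rectifier subunit of astrocytes, stood at 73.3 ± 16.0 CPM in NN-Astro and 51.2 ± 6.7 in NN-OPC, and the next type, NN-VLMC, was 11.04 times lower than NN-OPC. Kcnh8, an ELK channel, stood at 324.3 ± 28.9 in NN-OPC, 4.58 times its level in the next type. The pore of the vascular ATP-sensitive channel, Kcnj8, was 12.3 ± 9.0 in NN-VLMC from only 22 UMIs and had 1 UMI over all libraries of Inh-CGE, the next type. Microglia held the highest level of the two-pore gene Kcnk6 (38.0 ± 15.8, 11.3 times the next type). Kcnk13, a two-pore channel known from microglia, was higher in NN-ODC (265.9 ± 79.5) than in NN-MGC (142.2 ± 10.1), and the libraries of the 2 types did not overlap. The microglial markers summed to 66.9 CPM in NN-ODC and 3596 in NN-MGC. In Cajal-Retzius cells Kcnj5 was 18.5 ± 8.1 CPM, 4.51 times the next type, from 35 UMIs.

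Classes of cell types were then compared within libraries, with the library as a block, by edgeR's quasi-likelihood test across all genes. A gene was called at an adjusted p under 0.05 and an absolute log2 fold change of at least 1. Fold changes are differences of mean log2 levels over the cell types of a class, so they need not equal the ratio of the class means in CPM.

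**Figure D2:**
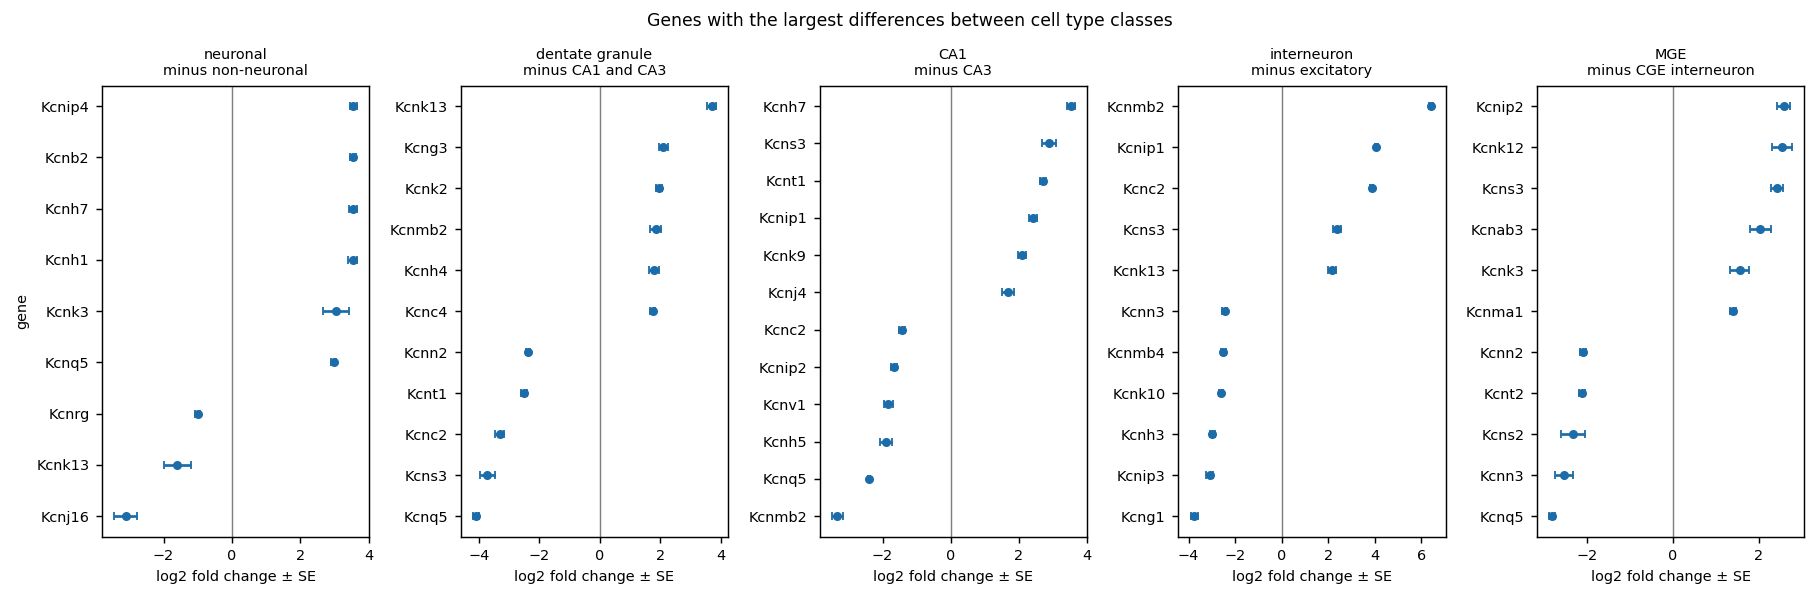
Log2 fold change ± SE (x axis) of up to 6 potassium channel genes in each direction (y axis) with a large called change in each of 5 contrasts of cell type classes, 4 libraries in each. Kcnmb2 has the largest value of the 5 panels, 6.42 in interneurons against excitatory neurons.

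Neuronal types were compared with non-neuronal types first. Of 69 genes that passed the filter on low counts, 38 were higher in neurons and 5 lower, which is 43 of 69 against a background of 32.7% of all genes tested (18.1% higher and 14.6% lower). Of 13 Kv pore genes, 9 were among those higher in neurons, while the two-pore genes gave 4 higher and 2 lower of 11. Kcnip4 averaged 4483 ± 918 CPM over neuronal types and 298.7 ± 141.7 over non-neuronal types (log2 fold change 3.54 ± 0.11, edgeR adjusted p = 8.73e-40). Kcnb2, a delayed rectifier of the cell body, averaged 938.4 ± 85.6 and 122.9 ± 29.9 (3.54 ± 0.09, edgeR adjusted p = 3.35e-44). Lower in neurons were Kcnj16 (1.35 ± 0.22 against 26.9 ± 4.8 CPM, log2 fold change -3.11 ± 0.33), Kcnk13 (-1.60 ± 0.39), Kcnrg (-1.01 ± 0.08) and 2 genes outside the named set. The value of Kcnrg lay at the limit of the call and fell under it in 4 alternative fits.

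Dentate granule neurons were compared with the CA1 and CA3 types. Of 66 genes tested, 19 were higher and 7 lower in granule neurons, against a background of 7.35% higher and 9.93% lower over all genes (17.3% in all). Kcnq5 had the largest change of the genes with a lower level. It averaged 71.9 ± 16.9 CPM in Exc-DG and 1624 ± 31.6 over the CA types (-4.09 ± 0.10, edgeR adjusted p = 7.49e-20). The silent subunit Kcns3, the Kv3 gene Kcnc2, the sodium-activated Kcnt1 and the small-conductance calcium-activated Kcnn2 were lower as well (log2 fold changes -3.72 ± 0.26, -3.31 ± 0.15, -2.51 ± 0.09 and -2.36 ± 0.06). Kcns3 had 1.19 ± 0.90 CPM in granule neurons, with 1 D2 library at 0.

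Higher in granule neurons was Kcnk13, whose Exc-DG level was 60.6 and 53.0 CPM for B6 and 43.1 and 37.1 for D2. Its mean over the CA types was 5.20, 3.81, 4.71 and 4.52 CPM in the same libraries. No granule library came near a CA library (log2 fold change 3.69 ± 0.14, edgeR adjusted p = 3.71e-16). The silent subunit Kcng3 (2.10 ± 0.15), the mechanosensitive two-pore channel Kcnk2 (1.96 ± 0.09), the ELK channel Kcnh4 (1.80 ± 0.17) and Kcnc4 (1.74 ± 0.07) followed. The distance varied with the CA type. Kcnk2 held 113.3 CPM in Exc-DG, 71.7 in Exc-CA1-Galntl6 and 5.28 in Exc-CA1-Fras1. Kcnh4 held 10.3 in Exc-DG, 5.84 in Exc-CA1-Camk2d and 0.970 in Exc-CA3. Kcnmb2 was also called (1.84 ± 0.18), yet its level in Exc-DG (54.1 ± 18.1) was below that in Exc-CA3 (80.4 ± 15.6) and above the CA1 types only.

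Within the CA fields, CA1 was compared with CA3. Of 62 genes, 13 were higher in CA1 and 9 lower, against 5.47% and 4.98% of all genes (10.4% in all). Kcnh7, an ERG channel, averaged 1013 ± 185 CPM over the CA1 types and 58.0 ± 15.1 in CA3 (log2 fold change 3.54 ± 0.11, edgeR adjusted p = 2.15e-16). Within CA1 it ranged from 189.2 ± 38.3 CPM in Exc-CA1-Camk2d to 2103 ± 326 in Exc-CA1-Fras1. Kcns3 (2.88 ± 0.20), Kcnt1 (2.72 ± 0.10), Kcnip1 (2.44 ± 0.12), the acid-sensitive two-pore channel Kcnk9 (2.10 ± 0.11) and Kcnj4 (1.67 ± 0.18) were also higher in CA1. Higher in CA3 were Kcnmb2 (-3.33 ± 0.17), Kcnq5 (-2.39 ± 0.04), Kcnh5 (-1.90 ± 0.16), Kcnv1 (-1.83 ± 0.14), Kcnip2 (-1.66 ± 0.08) and Kcnc2 (-1.43 ± 0.09). For Kcnc2, Exc-CA1-Galntl6 (390.9 CPM) was close to Exc-CA3 (402.5), while Exc-CA1-Camk2d held 168.1 and Exc-CA1-Fras1 47.4.

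Interneurons were compared with excitatory neurons. Of 65 genes, 11 were higher and 24 lower in interneurons, against 7.89% and 10.3% of all genes (18.2% in all). Kcnmb2, the inactivating beta subunit of the large-conductance calcium-activated (BK) channel, stood at 1005, 1036, 951.1 and 900.8 CPM over the interneuron types of the 4 libraries. The excitatory types of those libraries held 17.7, 23.2, 23.6 and 23.5 CPM. The log2 fold change was 6.42 ± 0.10 (edgeR adjusted p = 1.73e-41).

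The beta subunit that neurons otherwise use, Kcnmb4, went the other way, with 9.25 ± 0.88 CPM in interneurons and 54.0 ± 3.0 in excitatory neurons (-2.50 ± 0.10, edgeR adjusted p = 7.90e-26). Kcnip1 (4.07 ± 0.05), Kcnc2 (3.86 ± 0.06), Kcns3 (2.39 ± 0.18) and Kcnk13 (2.16 ± 0.17) were higher in interneurons as a class. For Kcnk13, however, Exc-DG (48.5 CPM) was above Inh-MGE (21.6), Inh-CGE (24.1) and Inh-Lamp5 (20.7). Kcns3 was high in Inh-Lamp5 (89.7 CPM) and Inh-MGE (61.6). In Inh-CGE (11.2) it was below Exc-CA1-Galntl6 (30.4), Exc-CA1-Camk2d (27.2) and Exc-CA1-Fras1 (20.9). Kcng1 (-3.76 ± 0.15), Kcnip3 (-3.10 ± 0.14), Kcnh3 (-2.97 ± 0.12), Kcnk10 (-2.61 ± 0.10) and Kcnn3 (-2.44 ± 0.10) were lower. Silent Kv subunits gave 1 higher and 5 lower of 8.

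Between the MGE and CGE interneurons, 8 of 54 genes were higher in MGE and 10 lower, against 4.47% and 4.31% of all genes (8.78% in all). Kcnq5 was lower in MGE. It stood at 242.7, 240.6, 211.3 and 205.9 CPM in Inh-MGE and at 1569, 1623, 1540 and 1506 in Inh-CGE (-2.81 ± 0.07, edgeR adjusted p = 2.07e-20), so the 2 types did not overlap. Kcnn3 had a log2 fold change of -2.53 ± 0.21, Kcns2 of -2.33 ± 0.29, Kcnt2 of -2.12 ± 0.07 and Kcnn2 of -2.08 ± 0.07. In MGE Kcnip2 (2.57 ± 0.16), Kcnk12 (2.53 ± 0.24), Kcns3 (2.42 ± 0.14), Kcnab3 (2.03 ± 0.24), Kcnk3 (1.55 ± 0.22) and the BK pore Kcnma1 (1.39 ± 0.06) were higher.

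Strains were compared in each cell type on its own. Across the 17 types 71 genes were tested at least once and 19 never passed the filter, which gave 804 tests. Of these, 217 (27.0%) passed at an adjusted p under 0.05 in edgeR, against a background of 22.1% of all gene tests, and 14.4% when only genes with counts in both strains were tested. Of the calls, 174 were lower in D2 (9.25% of all gene tests were called lower) and 43 higher. Among genes with counts in both strains, lower calls made up 80.4% of those of potassium channel genes and 57.3% of those over all genes. With all tested genes the shares were 80.2% and 41.8%. These shares take no account of gene length, which moved with the strain difference over all genes, as given below. Marker levels were also lower in D2 in some types. The 4 oligodendrocyte markers summed to 217.0 and 218.5 CPM in B6 and 159.0 and 143.9 in D2 in Exc-DG (-0.52 on the log2 scale), and their sum was lower in D2 in the other excitatory types (-0.56 to -0.86) and NN-Astro (-1.11) and higher in NN-OPC (0.52). The 3 dentate markers in Exc-DG summed to 420.2 and 436.8 CPM in B6 and 324.2 and 324.5 in D2 (-0.40). The excitatory marker Slc17a7 was lower in D2 in interneurons. In Inh-Lamp5 it held 21.8 and 22.5 CPM in B6 and 10.6 and 10.2 in D2 (-1.10). In Inh-MGE and Inh-CGE the values were -0.41 and -0.40. None of these markers was at 0 in those types, and their part in the calls was not tested. Calls fell on 53 genes, and 18 tested genes were never called. The call rests on the tool as well: DESeq2 also called 102 of the 217, and 94 held when each library was left out in turn.

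**Figure D3:**
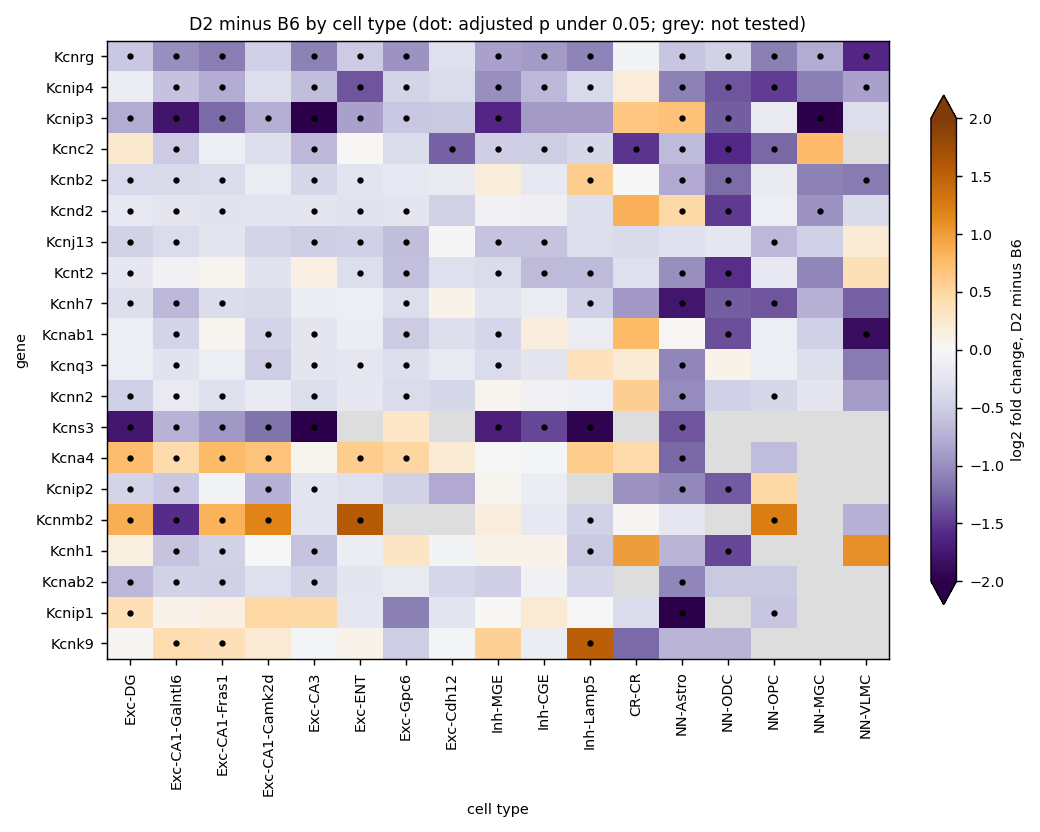
Log2 fold change of D2 minus B6 (colour, 2 libraries a strain) for the 20 named potassium channel genes (rows) in 17 cell types (columns), with a dot where the adjusted p was under 0.05 and grey where a gene was not tested. Most dots lie on purple, lower in D2, and Kcna4, Kcnmb2 and Kcnk9 have rows in which most dots lie on orange.

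In Exc-DG 26 of 68 genes were called (background 36.0%), 16 lower in D2 (13.8%) and 10 higher (22.2%). The CA1 types gave 24 of 60 in Exc-CA1-Galntl6 (35.0%), with 19 lower (14.1%) and 5 higher (20.9%), 18 of 58 in Exc-CA1-Fras1 (28.5%), with 13 lower (12.3%) and 5 higher (16.1%), and 8 of 61 in Exc-CA1-Camk2d (19.4%), with 6 lower (7.40%) and 2 higher (12%). In Exc-CA3 17 of 58 were called (32.1%), 16 lower (12.9%) and 1 higher (19.2%). Lower calls outnumbered higher ones among the potassium channel genes of each granule and CA type. Exc-ENT gave 18 of 58 (28.0%), 12 lower (11.6%) and 6 higher (16.4%), Exc-Gpc6 15 of 54 (19.7%), 13 lower (8.79%) and 2 higher (10.9%), and Exc-Cdh12 3 of 45 (8.44%), 2 lower (3.41%) and 1 higher (5.03%). Interneurons gave 9 of 58 in Inh-MGE (21.0%), 9 lower (7.84%) and 0 higher (13.2%), 7 of 46 in Inh-CGE (15.1%), 6 lower (6.02%) and 1 higher (9.06%), and 12 of 39 in Inh-Lamp5 (12.1%), 9 lower (5.61%) and 3 higher (6.45%). In CR-CR 1 of 32 was called (4.26%), lower in D2 (2.09% lower and 2.18% higher over all genes). The calls in interneurons were thus also mostly lower. NN-Astro gave 23 of 47 (26.2%), 19 lower (11.7%) and 4 higher (14.5%), and NN-ODC 15 of 35 (19.0%), 14 lower (8.93%) and 1 higher (10.1%). NN-OPC gave 12 of 40 (16.2%), 11 lower (7.30%) and 1 higher (8.90%), NN-MGC 4 of 25 (10.4%), 3 lower (5.12%) and 1 higher (5.25%), and NN-VLMC 5 of 20 (7.87%), 5 lower (4.76%) and 0 higher (3.11%).

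Over all genes, part of these calls fell on genes with counts in 1 strain only, so the counts were repeated for genes with counts in both strains, beside the background of the same fit. All tests of potassium channel genes remained, and 194 of 804 (24.1%) were called against 14.4%. By type these were 24 in Exc-DG (background 25.4%, potassium channel genes 35.3%), 24 in Exc-CA1-Galntl6 (26%, 40%), 17 in Exc-CA1-Fras1 (20%, 29.3%), 6 in Exc-CA1-Camk2d (9.12%, 9.84%) and 13 in Exc-CA3 (21.7%, 22.4%). Exc-ENT had 14 (18.2%, 24.1%), Exc-Gpc6 11 (12.2%, 20.4%) and Exc-Cdh12 2 (3.05%, 4.44%). Interneurons had 8 in Inh-MGE (11.5%, 13.8%), 6 in Inh-CGE (8.09%, 13%) and 12 in Inh-Lamp5 (8.46%, 30.8%), and CR-CR had 1 (1.66%, 3.13%). NN-Astro had 21 (18.5%, 44.7%), NN-ODC 11 (14%, 31.4%), NN-OPC 12 (11.3%, 30%), NN-MGC 7 (8.06%, 28%) and NN-VLMC 5 (5.62%, 25%). The shares in Exc-CA1-Camk2d, Exc-CA3 and Inh-MGE lay near their background, and those in Exc-Cdh12 and CR-CR rested on 2 calls and 1 call.

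By subfamily, the Kcnip genes had the highest share of calls, with 32 of 62 tests called (51.6%, against 22.1% of all gene tests, 9.25% lower), 30 of them lower in D2 and 2 higher, and a median log2 fold change of -0.56. Other accessory subunits (Kcnab, Kcnmb and Kcnrg among those tested) had 33 of 79 called (41.8%), 28 lower and 5 higher (median -0.31). Kcnrg alone gave 14 of these calls, all lower in D2, and DESeq2 made 4 of the 14. Kv pore subunits had 48 of 200 (24%, 34 lower and 14 higher), silent Kv subunits 20 of 65 (30.8%, 17 and 3), Kcnq 16 of 70 (22.9%, 13 and 3), Kcnh 20 of 78 (25.6%, 18 and 2), and calcium- or sodium-activated pores 23 of 98 (23.5%, 21 and 2). Inward rectifiers had 12 of 49 (24.5%, 8 lower and 4 higher). Only the two-pore channels among these 9 groups had more calls higher than lower in D2, with 13 of 103 called (12.6%), 5 lower and 8 higher. Over all genes tested, more calls were also higher than lower, since lower calls made up 41.8% of them (57.3% among genes with counts in both strains). Each group is a count over tests in which types of 1 library share animals.

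Kcnip3 was lower in D2 in 10 cell types. In Exc-CA3 the B6 libraries held 89.98 and 76.4 CPM and the D2 libraries 18.5 and 21.1. Both D2 libraries were well under both B6 libraries (log2 fold change -2.05 ± 0.14, edgeR adjusted p = 2.30e-09). In Exc-CA1-Galntl6 the libraries held 94.6 and 99.3 CPM in B6 and 27.2 and 29.0 in D2 (-1.78 ± 0.10, edgeR adjusted p = 9.31e-10). In Exc-DG the difference was smaller, with 152.2 and 158.1 CPM in B6 and 90.9 and 87.9 in D2 (-0.78 ± 0.08, edgeR adjusted p = 1.20e-06). Astrocytes went the other way. There the B6 libraries held 99.9 and 114.9 CPM and the D2 libraries 159.3 and 187.7, again without overlap (0.70 ± 0.11, edgeR adjusted p = 4.05e-06). DESeq2 also called 10 of the 11 cell types called by edgeR.

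Kcnip4 was lower in D2 in 12 types, from -0.40 in Inh-Lamp5 to -1.47 in NN-OPC on the log2 scale. In Exc-ENT the B6 libraries held 3001 and 2790 CPM and the D2 libraries 1144 and 1097 (-1.35 ± 0.07, edgeR adjusted p = 4.80e-18). Both D2 pools were far under both B6 pools. In Exc-DG, where its level was highest, it was not called, at 13169 and 12460 CPM in B6 and 11770 and 11389 in D2 (-0.13 ± 0.05, edgeR adjusted p = 0.0713). Kcnip2 was lower in 6 types, Exc-DG among them (140.5 and 140.5 CPM in B6, 108.9 and 96.4 in D2, -0.44 ± 0.08). DESeq2 made 2 of the 6 calls of Kcnip2, that in Exc-DG included.

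The pore that these proteins bind, Kcnd2, was lower in D2 in 8 types by smaller amounts in neurons, between -0.19 in Exc-DG and -0.28 in Exc-ENT. In astrocytes it was higher, at 1017 and 960.0 CPM in B6 and 1278 and 1434 in D2 (0.47 ± 0.09, edgeR adjusted p = 6.54e-05). DESeq2 made 7 of the 9 calls of Kcnd2. Kcnd3, the other Kv4 pore of neurons, was lower in 3 types, which were Exc-CA1-Fras1, NN-Astro and NN-OPC. DESeq2 made only the NN-Astro call of Kcnd3. The call in Exc-CA1-Fras1 (DESeq2 adjusted p = 0.0903) was also lost without B6 library 3 or D2 library 3. Among proteins that ride on Kv4 channels and are not members, Dpp6 and Dpp10 were each lower in D2 in Exc-DG.

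**Figure D4:**
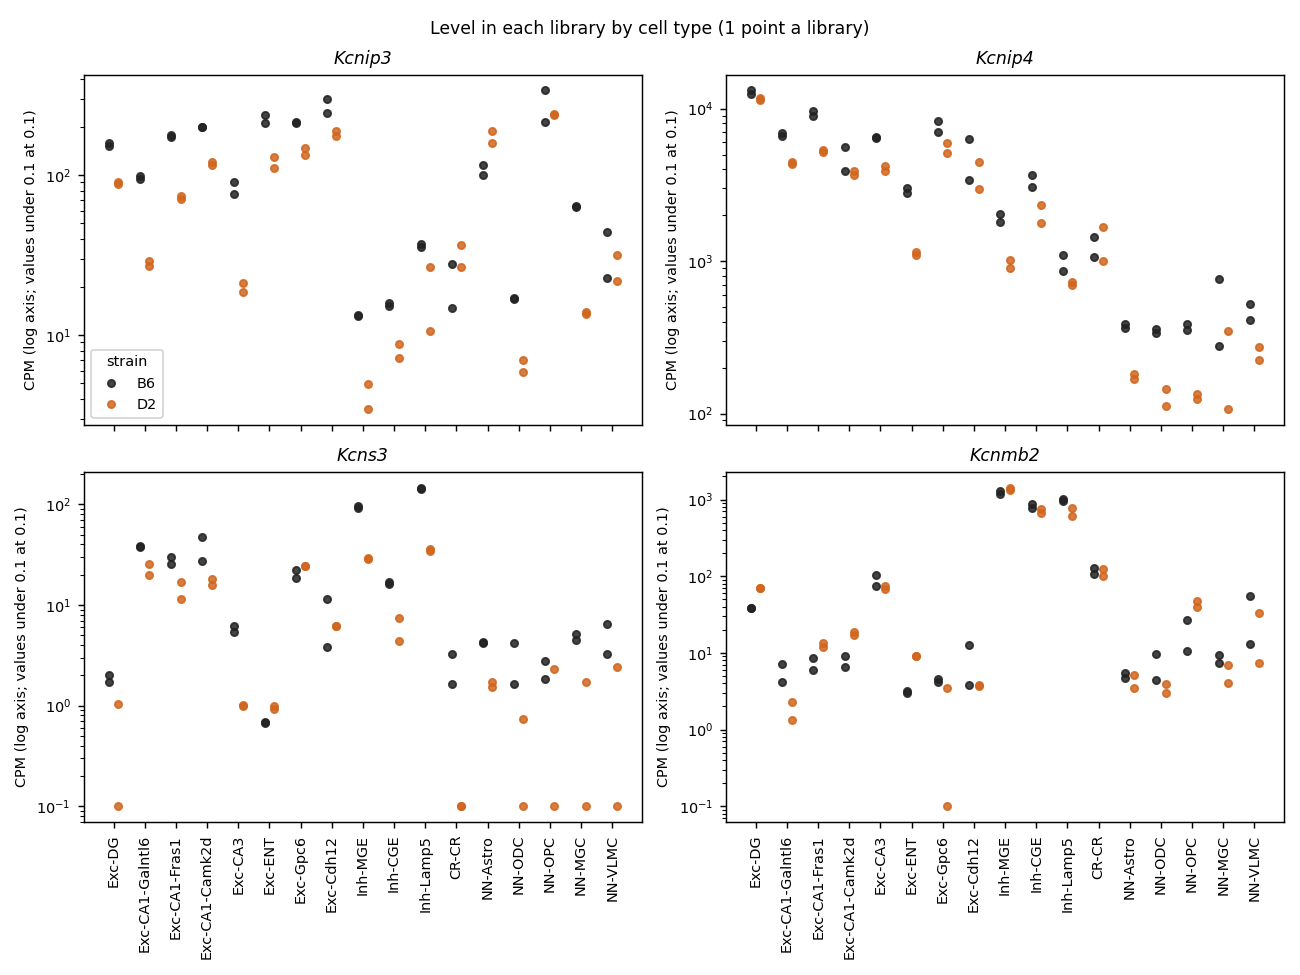
CPM on a log axis (y) of Kcnip3, Kcnip4, Kcns3 and Kcnmb2 in each of 17 cell types (x), 1 point a library, B6 black and D2 orange, with values under 0.1 drawn at 0.1. Orange points lie under black ones for Kcnip3 in the excitatory types and over them in NN-Astro, and the Kcnmb2 points of the 3 interneuron types lie above all others.

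Among the Kv pores, Kcnb2 was lower in D2 in 8 types and higher in Inh-Lamp5. DESeq2 made 5 of the 9 calls of Kcnb2. In Exc-DG its libraries held 771.6 and 828.1 CPM in B6 and 608.3 and 592.1 in D2 (-0.40 ± 0.06, edgeR adjusted p = 1.41e-04). In Inh-Lamp5 they held 432.3 and 460.2 CPM in B6 and 642.7 and 655.3 in D2, so the order of the strains was turned (0.59 ± 0.12, edgeR adjusted p = 4.01e-04). Kcnc2 was lower in 10 types, with 2864 and 3183 CPM in B6 and 2312 and 1976 in D2 in Inh-MGE, its type of highest level (-0.49 ± 0.12, edgeR adjusted p = 0.00626). Without D2 library 3 that last call was lost. DESeq2 made 5 of the 10 calls of Kcnc2. Kcnc2 was also the 1 gene called in CR-CR (-1.53 ± 0.33). That call was lost with the library number as a block (edgeR adjusted p = 0.114), and the sum of the 2 Cajal-Retzius markers in CR-CR was also lower in D2 (3680 and 4128 CPM in B6, 2203 and 926.6 in D2, -1.32 on the log2 scale), whose part was not tested.

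Kcna4, the Kv1 pore with fast inactivation, was higher in D2 in 6 excitatory types. In Exc-DG the B6 libraries held 42.4 and 51.0 CPM and the D2 libraries 75.6 and 79.6 (0.74 ± 0.10, edgeR adjusted p = 3.3e-05). No D2 library was as low as a B6 library. DESeq2 kept 2 of its 7 calls, this one included, and the seventh, in NN-Astro, was lower in D2 (-1.26 ± 0.39) at under 7 CPM in every library.

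Kcns3, a silent subunit that joins other Kv pores, was lower in D2 in 9 of the 10 types tested. DESeq2 made 5 of the 9 calls of Kcns3. In Inh-Lamp5, its type of highest level, the B6 libraries held 146.5 and 141.4 CPM and the D2 libraries 36.4 and 34.4 (-1.96 ± 0.20, edgeR adjusted p = 1.10e-08). Inh-MGE had 95.9 and 92.2 CPM in B6 and 28.8 and 29.4 in D2 (-1.68 ± 0.13, edgeR adjusted p = 6.57e-08). Both interneuron types were thus separated by strain in every library. The call of Kcns3 in Exc-DG rested on levels under 2.1 CPM. The 3 MGE markers varied between the libraries of Inh-MGE, at 1619 and 730.7 CPM in B6 and 1284 and 2166 in D2. Their part in the strain differences of Inh-MGE was not tested.

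Accessory subunits of the Kv1 channels, Kcnab1 and Kcnab2, were lower in D2 in 7 and 5 types. DESeq2 made 4 of the 7 calls of Kcnab1 and 2 of the 5 of Kcnab2. Kcnab1 in NN-ODC stood at 907.0 and 763.0 CPM in B6 and 330.5 and 275.6 in D2 (-1.38 ± 0.13, edgeR adjusted p = 4.76e-09). Kcnab2 in Exc-DG stood at 109.5 and 98.4 CPM in B6 and 67.6 and 61.2 in D2 (-0.68 ± 0.09, edgeR adjusted p = 2.4e-05). In both cases the strains were apart in all libraries. Part of Kcnab2 overlaps Nphp4 on the opposite strand in the annotation.

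Kcnrg, which encodes a cytoplasmic protein known to restrain Kv channel assembly, was lower in D2 in 14 of 17 types and below 0 on the log2 scale in all 17. Its level was highest in NN-MGC, with 281.4 and 209.2 CPM in B6 and 141.9 and 131.9 in D2 (-0.80 ± 0.17, edgeR adjusted p = 0.00561), a call lost without B6 library 2. In Exc-CA3 it stood at 41.3 and 35.0 CPM in B6 and 20.1 and 14.9 in D2 (-1.08 ± 0.16, edgeR adjusted p = 3.4e-05). The 2 strains did not overlap in either type. DESeq2 called 4 of the 14. Kcnrg overlaps Dleu2 on the opposite strand in the annotation.

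The BK subunit Kcnmb2 was higher in D2 in 5 types and lower in 2. In Exc-DG the B6 libraries held 38.8 and 38.1 CPM and the D2 libraries 69.8 and 69.6, close within a strain and apart between strains (0.87 ± 0.09, edgeR adjusted p = 2.37e-06). In Exc-ENT they held 3.01 and 3.15 CPM in B6 and 9.07 and 9.04 in D2 (1.57 ± 0.33, edgeR adjusted p = 2.59e-04), a difference that DESeq2 did not call. In Inh-MGE, where its level was highest, no difference was called, with 1188 and 1300 CPM in B6 and 1326 and 1423 in D2 (0.15 ± 0.11). DESeq2 called 2 of its 7 types.

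Of the calcium- and sodium-activated pores, Kcnn2 (SK2) was lower in D2 in 7 types and Kcnt2 in 8. DESeq2 made 5 of the 7 calls of Kcnn2 and 2 of the 8 of Kcnt2, and 4 and 0 of them held without each library in turn. Kcnn2 in Exc-DG held 196.1 and 186.9 CPM in B6 and 141.1 and 131.8 in D2 (-0.48 ± 0.07, edgeR adjusted p = 1.14e-04). Kcnt2 in Inh-CGE held 488.7 and 601.7 CPM in B6 and 317.9 and 361.1 in D2 (-0.66 ± 0.13, edgeR adjusted p = 8.70e-04), a call that was lost without either D2 library. Both genes were low in both D2 libraries of these types.

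Kcnh7 was lower in D2 in 8 types, all of which DESeq2 also called. In Exc-CA1-Galntl6 its libraries held 895.2 and 952.5 CPM in B6 and 555.9 and 584.4 in D2 (-0.69 ± 0.06, edgeR adjusted p = 7.09e-08). The EAG channel Kcnh1 was lower in 5 types, and DESeq2 made 2 of these calls. It was not called in Exc-DG, where B6 held 233.9 and 230.3 CPM and D2 268.1 and 237.4. Kcnq3 was lower in 7 types, by -0.23 to -0.49 in neurons. DESeq2 made 6 of these 7 calls, but most were lost when some library was left out. Kcnq5 went the other way in Exc-DG, where the D2 libraries at 89.9 and 82.6 CPM were above the B6 libraries at 59.5 and 55.7 (0.60 ± 0.09, edgeR adjusted p = 6.1e-05).

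Among rectifiers, Kcnj13 was lower in D2 in 8 types by -0.36 to -0.68, but the gene lies within Gigyf2 on the opposite strand, and its level varied little between cell types (24.6 to 59.1 CPM). DESeq2 made 2 of these 8 calls, and 1 held without each library in turn. Kcnj16 was higher in D2 in NN-Astro, with 61.4 and 58.1 CPM in B6 and 83.6 and 90.3 in D2 (0.55 ± 0.13, edgeR adjusted p = 7.09e-04). Two-pore channels had more calls higher than lower in D2, as had all genes tested. Kcnk9 was higher in D2 in 3 types, of which DESeq2 called only Exc-CA1-Galntl6. There it held 75.6 and 68.3 CPM in B6 and 95.7 and 97.3 in D2 (0.43 ± 0.09, edgeR adjusted p = 0.00111). Kcnk13 was higher in D2 in NN-ODC, at 182.1 and 214.0 CPM in B6 and 335.2 and 332.5 in D2 (0.83 ± 0.12, edgeR adjusted p = 1.1e-05). In Exc-DG the same gene was lower in D2 (-0.48 ± 0.11, edgeR adjusted p = 0.00240). Kcnk12 in NN-MGC rose from 37.4 and 57.7 CPM in B6 to 121.1 and 141.4 in D2 (1.46 ± 0.22, edgeR adjusted p = 2.09e-04).

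Many calls in astrocytes, oligodendrocytes and their precursors fell on genes with a higher level in neurons. Of the 32 such genes tested in NN-Astro, 16 were lower in D2 and 1 higher, with a median log2 fold change of -0.70. All 2134 genes of the same kind there had a median of -0.20, with 22.9% called lower and 11.8% higher. In NN-ODC 11 of 23 were lower and 0 higher (median -0.75, against -0.33 over all such genes, 22.1% of them lower and 7.80% higher). In NN-OPC 9 of 26 were lower and 1 higher (median -0.21, against -0.13, 13.96% and 10.7%). NN-MGC had 1 lower and 1 higher of 18 (median -0.61, against -0.40, 12.1% and 3.64%), and NN-VLMC 4 lower and 0 higher of 15 (median -0.79, against -0.25, 12.3% and 3.15%). Kcnip1 in NN-Astro was the extreme, with 45.8 and 41.7 CPM in B6 and 6.71 and 8.05 in D2 (-2.55 ± 0.22, edgeR adjusted p = 2.36e-12). Its level was not higher in every neuronal type. It ranged from 540.3 CPM in Inh-CGE to 17.1 in Exc-DG and 5.15 in Exc-CA3, and NN-OPC held 290.6. Markers of neurons were measured in these nuclei. In NN-Astro 13 of them summed to between 240.2 and 275.7 CPM, against 817.0 in Exc-DG, and none was at 0. Not all were low in glia, so the sum is not a measure of neuronal RNA alone. The 3 dentate markers gave 198.1 CPM in NN-ODC and were 0.21 higher in D2 there on the log2 scale. The 3 CA3 markers gave 95.8 CPM in NN-Astro and 23.1 in Exc-DG. On the log2 scale the sum of all 13 was lower in D2 by 0.11 in NN-Astro, 0.03 in NN-ODC and 0.33 in NN-OPC. It was lower by 0.67 in NN-MGC and 0.21 in NN-VLMC. Slc17a7, 1 of the 13, had a mean in NN-Astro of 61.5 CPM for B6 and 43.8 for D2, and in NN-ODC of 76.5 and 51.8. It was 46.5 and 35.6 in NN-OPC, 73.2 and 47.7 in NN-MGC and 46.3 and 42.2 in NN-VLMC. The part of neuronal RNA in the calls was not tested. Fewer neuronal molecules around the nuclei and less RNA of the glial cells themselves cannot be told apart. Genes with no higher level in neurons were also called in astrocytes, Kcnt1, Kcnrg and Kcng2 lower and Kcnip3, Kcna2 and Kcnj16 higher in D2.

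Gene length moved with the strain difference over all genes. In Exc-DG genes over 100 kb had a median log2 fold change of -0.10, and the 21 potassium channel genes of that length had -0.11. Genes under 20 kb had a median of 0.09, and the 22 potassium channel genes among them 0.30. In NN-ODC the 15 tested potassium channel genes over 100 kb had a median of -1.27, while all genes of that length had -0.10. Among all genes with counts in both strains, 24.8% of those over 100 kb were called lower in Exc-DG and 8.26% higher. Under 20 kb the shares were 9.75% and 13.9%. The 21 potassium channel genes over 100 kb had 6 lower and 3 higher. In Exc-CA1-Galntl6 the shares over 100 kb were 28.2% and 7.75%, and 11 of 21 potassium channel genes were lower and 0 higher. In NN-ODC the shares were 16.5% and 8.44%, with 7 of 15 lower and 0 higher. The part of length in the calls was not tested.

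Whether the strain difference itself differed between classes was tested as an interaction. Between Exc-DG and the CA1 and CA3 types 5 of 68 genes were called, against 1.52% of all genes, and all 5 differences were positive. Kcnq5 was higher in D2 in Exc-DG and close to 0 over the CA types (mean log2 fold changes 0.60 and -0.02, difference 0.60 ± 0.09, edgeR adjusted p = 1.41e-04), and its call held without each library in turn. Kcnip3 was lower in D2 in both, less so in Exc-DG (-0.78 and -1.46, difference 0.66 ± 0.10, edgeR adjusted p = 1.47e-04). Kcnh1 was near 0 in Exc-DG and lower in D2 over the CA types (0.14 and -0.41, difference 0.53 ± 0.10, edgeR adjusted p = 0.00236). For Kcnmb2 the means were 0.87 in Exc-DG and 0.05 over the CA types, where calls went opposite ways. It was lower in D2 in Exc-CA1-Galntl6 (-1.56) and higher in Exc-CA1-Fras1 and Exc-CA1-Camk2d. DESeq2 made none of these CA1 calls. Calls of Kcnmb2 (difference 0.81 ± 0.20, edgeR adjusted p = 0.0327) and Kcnip4 (0.44 ± 0.11, edgeR adjusted p = 0.0260) were lost when either D2 library was left out, that of Kcnmb2 also without B6 library 3 (edgeR adjusted p = 0.432) and in DESeq2 (adjusted p = 0.0692), and those of Kcnip3 (edgeR adjusted p = 0.0527) and Kcnh1 (edgeR adjusted p = 0.0891) without D2 library 2. Between excitatory neurons and interneurons 1 of 71 genes was called (background 1.47%), Kcnb2, with a difference of -0.47 ± 0.08 (edgeR adjusted p = 1.10e-04). Without D2 library 3 it had an edgeR adjusted p of 0.0691. Columns of 1 library share animals, which this test does not model.

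Proteins that sit with potassium channels and have other gene names were followed as a list of 22. In Exc-DG 4 of 18 tested were lower in D2 (Adam23, Dpp10, Dpp6 and Dlg2) and 1 was higher, the calmodulin gene Calm2, against 13.8% lower and 22.2% higher over all genes (36.0% called). Cntnap2, which anchors Kv1 channels beside the node, was lower in D2 in most cell types, such as Exc-CA3, with 2767 and 2375 CPM in B6 and 1753 and 1621 in D2, so both D2 libraries were low. In the contrast of neuronal and non-neuronal types 10 of 19 were higher in neurons (18.1% of all genes) and 1 lower (14.6%), Abcc9, which partners Kcnj8. Abcc9 held 100.9 and 50.2 CPM in the B6 libraries of NN-VLMC and 13.8 and 17.01 in those of D2 and was called lower in D2, while Kcnj8 itself did not pass the filter there.

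Chromatin accessibility was measured in the same strains by single-nucleus ATAC sequencing (snATAC-seq), with 2 libraries per strain and 15 of the cell types. Peaks were tested in Exc-DG, the type with the most reads, at 18111758 to 27815541 counts per library. At 89 of the genes, counting 2 kb on each side, 1806 peaks were tested. Of these 81 were called, 4.49% against 5.97% of all peaks, and they lay at 31 genes. Higher in D2 were 55 (background 3.39%) and lower 26 (background 2.58%), and 73 of the 81 lay inside the gene. Kcnb2 held 10 called peaks of 87, 5 in each direction, and Kcnq5 8 of 115. All called peaks were higher in D2 at Kcnab1 (6 of 68), Kcnmb2 (6 of 55) and Kcnd3 (5 of 43). At Kcnab1, whose RNA was not called in Exc-DG, the 6 log2 fold changes lay between 0.43 and 0.91.

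The sequence at the centre of 4 of these peaks is shown because these are the named peaks at genes whose RNA is described above. Each run is 300 bases of the B6 reference (GRCm38, plus strand, 5′ to 3′) and comes from chr4:152467913-152468212 for Kcnab2, chr5:49491181-49491480 for Kcnip4, chr1:15454199-15454498 for Kcnb2 and chr3:31991808-31992107 for Kcnmb2. None of the 4 peaks overlaps an exon of its gene in GENCODE vM21, and each lies within the gene, so they are intronic. Capitals mark matches to the AP-1 letters TGANTCA, the CRE letters TGACGTCA or the E-box letters CAGCTG, searched on both strands, none of which overlap one another. Bases of D2 at these places were not analysed here.
Kcnab2: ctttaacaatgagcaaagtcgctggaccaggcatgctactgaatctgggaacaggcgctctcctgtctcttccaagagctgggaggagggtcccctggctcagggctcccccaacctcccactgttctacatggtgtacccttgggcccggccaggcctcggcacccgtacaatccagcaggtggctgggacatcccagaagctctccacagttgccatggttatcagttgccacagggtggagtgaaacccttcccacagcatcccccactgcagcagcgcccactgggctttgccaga
Kcnip4: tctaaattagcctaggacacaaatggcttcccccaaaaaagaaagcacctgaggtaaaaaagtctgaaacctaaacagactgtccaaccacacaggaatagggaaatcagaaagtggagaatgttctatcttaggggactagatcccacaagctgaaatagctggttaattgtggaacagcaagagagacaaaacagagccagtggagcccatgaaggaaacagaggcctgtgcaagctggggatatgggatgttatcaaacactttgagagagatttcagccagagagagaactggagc
Kcnb2: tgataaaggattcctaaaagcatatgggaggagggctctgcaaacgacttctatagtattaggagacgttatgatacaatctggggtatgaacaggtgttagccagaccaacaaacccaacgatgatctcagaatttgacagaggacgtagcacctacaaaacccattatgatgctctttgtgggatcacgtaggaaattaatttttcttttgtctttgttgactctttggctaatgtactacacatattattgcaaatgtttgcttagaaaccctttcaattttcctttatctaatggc
Kcnmb2: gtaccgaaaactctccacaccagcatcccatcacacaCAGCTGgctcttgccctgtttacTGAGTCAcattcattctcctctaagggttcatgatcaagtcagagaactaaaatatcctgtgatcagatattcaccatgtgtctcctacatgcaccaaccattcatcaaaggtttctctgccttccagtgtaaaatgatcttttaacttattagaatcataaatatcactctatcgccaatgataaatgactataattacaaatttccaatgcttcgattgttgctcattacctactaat

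The Kcnmb2 window held 1 AP-1 and 1 E-box match, and the other windows held none of the 3. Over the central windows of 244837 peaks, AP-1 letters were found in 14.1%, CRE letters in 0.379% and E-box letters in 20.4%. A match is a description of the letters and does not show that a factor binds.

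The Kcnab2 peak spans chr4:152467659-152468465, 9809 bases into the gene from its start. In Exc-DG its B6 libraries held 35.8 and 34.0 CPM and its D2 libraries 1.94 and 1.34, the largest difference of any peak at these genes (log2 fold change -4.47 ± 0.13, edgeR adjusted p = 1.50e-117). The same direction was seen without overlap in Exc-CA1-Galntl6 (16.0 and 15.8 against 1.71 and 1.74 CPM) and in Exc-CA3 (15.1 and 14.9 against 1.31 and 1.83 CPM), which were not tested. Of the peak's bases in the reference, 7.19% were soft-masked repeats, with a median of 11.3% over peaks. As given above, Kcnab2 RNA was lower in D2 in Exc-DG as well.

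Peaks at Kcnip4 and Kcnb2 had few counts in B6 and more in D2, while the RNA of these genes was lower in D2 wherever it was called in excitatory neurons. The Kcnip4 peak, chr5:49491057-49491604, held 0.698 and 0.790 CPM in B6 and 6.17 and 6.77 in D2 (3.12 ± 0.23, edgeR adjusted p = 2.98e-31). The Kcnb2 peak, chr1:15453747-15454949, held 1.05 and 1.68 CPM in B6 and 10.1 and 9.96 in D2 (2.89 ± 0.18, edgeR adjusted p = 1.83e-40). In Exc-CA3 the Kcnb2 peak also lay higher in both D2 libraries (6.88 and 7.59 CPM against 1.05 and 1.17), whereas the Kcnip4 peak did not stand apart there (0.963 and 1.08 CPM in D2 and 0.988 and 0.622 in B6). At Kcnmb2 the peak chr3:31991263-31992651 was higher in D2 in Exc-DG (2.01 and 2.71 CPM in B6, 7.62 and 6.58 in D2, 1.58 ± 0.18, edgeR adjusted p = 5.59e-15), as was its RNA. Outside the gene end of Kcnj14 a peak at chr7:45815296-45816074 was higher in D2 (2.88 and 3.70 CPM in B6, 9.31 and 10.1 in D2), and a peak over a coding exon of Kcnh6 at chr11:106033385-106034079 was lower (5.59 and 3.55 CPM in B6, 1.09 and 1.02 in D2).

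**Figure D5:**
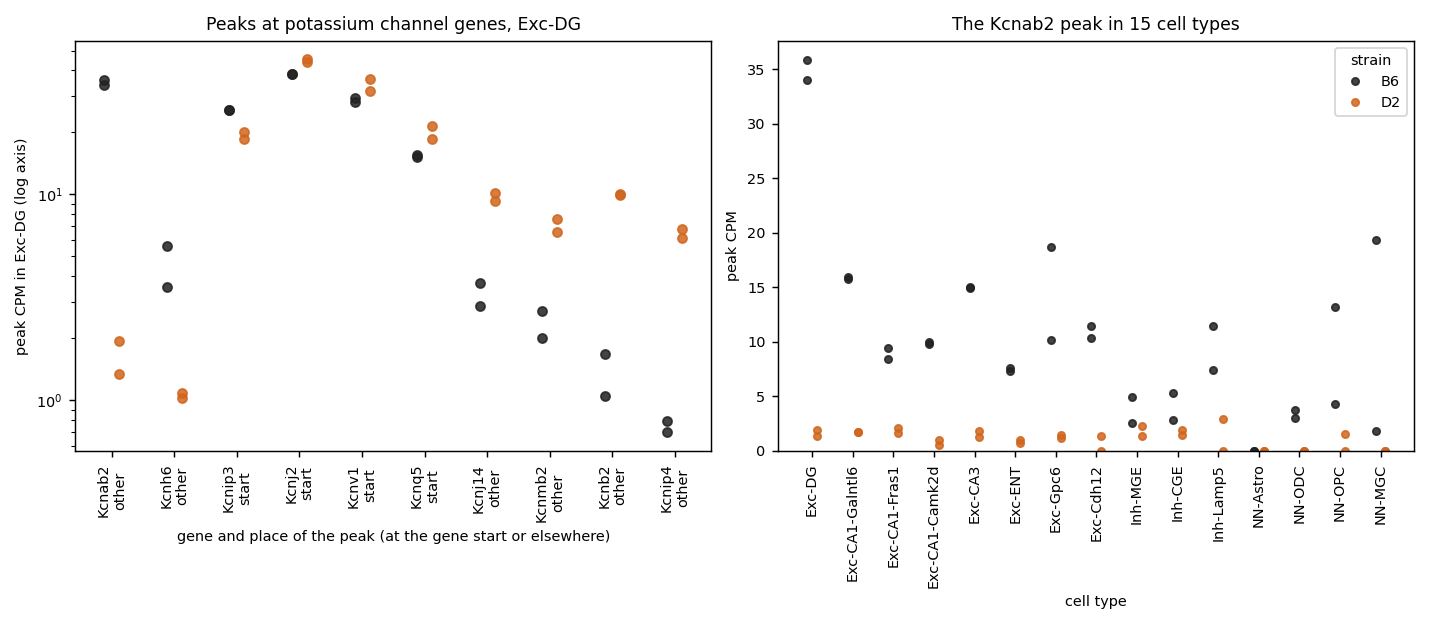
Left, CPM on a log axis of 10 peaks at potassium channel genes that were named or lay at a gene start and were called in Exc-DG, 1 point a library, B6 black and D2 orange. Right, CPM of the Kcnab2 peak in 15 cell types, where the B6 points of Exc-DG, at 35.8 and 34.0, lie above all others.

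Peaks at the gene start, within 1 kb, numbered 81 at 77 genes, and 5 were called, close to the 5.97% of all peaks. The Kcnip3 start peak was lower in D2, with 25.8 and 25.7 CPM in B6 and 18.69 and 20.003 in D2 (-0.41 ± 0.08, edgeR adjusted p = 5.6e-05). The Kcnq5 start peak was higher in D2, with 15.5 and 15.2 CPM in B6 and 18.7 and 21.5 in D2 (0.39 ± 0.09, edgeR adjusted p = 7.79e-04). In Kcnip3 and Kcnq5 the peak and the RNA of Exc-DG differed in the same direction and the libraries did not overlap. Start peaks of Kcnj2 (0.21 ± 0.07) and Kcnv1 (0.25 ± 0.07) were higher in D2. RNA of Kcnj2 in Exc-DG was also higher in D2, at a level under 10 CPM (3.02 and 2.45 CPM in B6, 5.41 and 5.20 in D2, 0.97 ± 0.26, edgeR adjusted p = 0.00942). DESeq2 kept the call of the Kcnip3 peak and not those of Kcnq5, Kcnj2 and Kcnv1. The RNA call of Kcnj2 was not made by DESeq2 either (adjusted p = 0.199) and was lost without B6 library 3.

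Promoters of Kcnip3, Kcnq5 and Kcnj2 are given from RefSeq (GRCm38.p6, 250 bases before the start and 50 after), with the same motifs in capitals. They were chosen because start peak and RNA were both called by edgeR in Exc-DG in the same direction. Kcnip3 has 2 starts inside its peak, with promoters at chr2:127522045-127522344 (upstream) and chr2:127521343-127521642 (downstream), both on the minus strand. The others are chr1:21961893-21962192 for Kcnq5 (minus strand) and chr11:111065914-111066213 for Kcnj2 (plus strand).
Kcnip3 upstream: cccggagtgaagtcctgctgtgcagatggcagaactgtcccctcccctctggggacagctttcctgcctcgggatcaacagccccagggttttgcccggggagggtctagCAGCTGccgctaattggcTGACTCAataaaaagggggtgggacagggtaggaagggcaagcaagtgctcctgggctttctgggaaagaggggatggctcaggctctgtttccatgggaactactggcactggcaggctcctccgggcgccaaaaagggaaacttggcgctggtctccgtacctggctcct
Kcnip3 downstream: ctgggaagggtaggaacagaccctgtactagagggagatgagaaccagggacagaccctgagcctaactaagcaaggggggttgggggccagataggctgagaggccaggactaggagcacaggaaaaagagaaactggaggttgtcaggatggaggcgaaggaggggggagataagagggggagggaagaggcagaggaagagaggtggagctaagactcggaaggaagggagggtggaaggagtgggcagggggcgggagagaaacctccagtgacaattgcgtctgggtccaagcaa
Kcnq5: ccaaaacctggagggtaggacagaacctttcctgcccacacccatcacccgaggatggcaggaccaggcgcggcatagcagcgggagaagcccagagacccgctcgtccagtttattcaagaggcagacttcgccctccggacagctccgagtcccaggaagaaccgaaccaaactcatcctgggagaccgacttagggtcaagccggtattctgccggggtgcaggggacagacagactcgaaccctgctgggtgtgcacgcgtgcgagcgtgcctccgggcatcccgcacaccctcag
Kcnj2: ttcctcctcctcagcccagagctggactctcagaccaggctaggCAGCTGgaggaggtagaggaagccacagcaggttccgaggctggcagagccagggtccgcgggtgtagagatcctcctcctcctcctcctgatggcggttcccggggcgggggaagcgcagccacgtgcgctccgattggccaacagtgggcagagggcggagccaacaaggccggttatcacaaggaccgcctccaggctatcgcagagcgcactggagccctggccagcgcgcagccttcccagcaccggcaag

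The upstream Kcnip3 promoter held 1 AP-1 and 1 E-box match and that of Kcnj2 1 E-box match, while the downstream Kcnip3 promoter and that of Kcnq5 held none of the 3. Of 32851 promoters of this length, 7.81% held the AP-1 letters, 1.79% the CRE letters and 16.3% the E-box letters.

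Accessibility of the start peak followed the RNA level from cell type to cell type for most genes. Over the 15 shared types, Spearman's rho between the summed start peaks and the RNA had a median of 0.664 over 59 genes, was above 0.5 in 45 and below 0 in 1, Kcnrg (-0.03). The highest cell type was the same in both assays for 17 genes. For Kcnc2 rho was 0.882, with both highest in Inh-MGE. For Kcnq5 it was 0.843. These values describe types, not replicates, and cell type names of the snATAC-seq nuclei had been transferred from the RNA, so the 2 orders are not independent.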

How the data were processed

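To make the tables, the authors aligned nuclear RNA with Cell Ranger 6.0.2, keeping intronic reads, and accessible DNA with Cell Ranger ATAC 2.0.0. The reference was mm10 for B6 and mm10 carrying D2 SNPs for D2. Nuclei were filtered, doublets removed and types annotated in Seurat 4.0.5, and MACS peaks of single samples were joined. Neurons were enriched by a NeuN sort in snRNA-seq and not in snATAC-seq. They deposited raw counts summed per cell type and library, and these counts were used without change. The tables number the libraries 2 and 3 and the labels 1 and 2, so a column was placed by strain only. There were 0 unused columns.

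The members, lists and tests were chosen with earlier results of these data known. The 4 libraries of a cell type were fitted by edgeR 4.0.16 in R 4.3.3 (TMM, filterByExpr, quasi-likelihood F test, Benjamini-Hochberg over all genes or peaks tested), with adjusted p under 0.05 as the call. The standard error of a fold change was derived from its F statistic. Contrasts of cell types used the library as a block, since columns of 1 library come from the same animals, and a log2 limit of 1. Peaks needed 10 counts over 4 libraries. DESeq2 1.42.0, RLE scaling, other filters, blocks and left-out libraries were alternatives. Scripts were tested on simulated data. An exact permutation test of 2 libraries against 2 cannot reach p under 0.05, and p-values measure the spread between these pools of animals only.

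Named genes between strains were the 20 with calls in the most cell types among those at a mean of 10 CPM or more with no overlap of the strains. In contrasts they were up to 6 in each direction, and peaks were named at a mean of 2 CPM or more. Other genes were chosen after their values were seen. Values of 2 of the genes are not reported here, and they stay in the counts. Same-numbered libraries deviated together with correlations of -0.198 to 0.083 over the 17 types, so the numbers were not taken to pair the samples. Gene coordinates came from GENCODE vM21, and 96.6% of the genes had a length. Peak coordinates are as deposited, and reference bases were read from GRCm38.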

Additional observations from a re-analysis of the deposited data

Results flagged for a closer look

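Strain differences that differed between classes of cell types by a test of the difference itself were those of Kcnq5 (0.60), Kcnh1 (0.53), Kcnip3 (0.66), Kcnmb2 (0.81) and Kcnip4 (0.44) between Exc-DG and the CA1 and CA3 types, as log2 fold changes of D2 minus B6, and of Kcnb2 (-0.47) between excitatory neurons and interneurons.

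In 8 genes every D2 library lay on one side of the B6 libraries in 1 cell type and on the other side in another, with both differences called at a mean level of at least 10 CPM. These were 8 of 36 potassium channel genes that met these limits in 2 or more types (22.2%), against 798 of 5334 over all genes (14.96%). The contrast between the 2 types was not tested here. Kcnip1 was lower in D2 in NN-Astro (log2 fold change -2.55) and higher in Exc-DG (0.40), the latter a call that DESeq2 did not make. Kcnip3 was lower in NN-MGC (-2.17) and higher in NN-Astro (0.70). Kcnd2 was lower in NN-ODC (-1.50) and higher in NN-Astro (0.47). Kcnb2 was lower in NN-ODC (-1.22) and higher in Inh-Lamp5 (0.59), and the NN-ODC call was not made by DESeq2 (adjusted p = 0.177) and was lost without D2 library 3. Kcna2 was lower in NN-ODC (-0.77) and higher in NN-Astro (0.42), and DESeq2 made neither call. Kcnq5 was lower in NN-Astro (-0.71) and higher in Exc-DG (0.60). Kcnmb2 was lower in Inh-Lamp5 (-0.46) and higher in NN-OPC (1.23), the former lost without B6 library 3 or D2 library 3 and the latter not called by DESeq2 (adjusted p = 0.105). Kcnk13 was lower in Exc-DG (-0.48) and higher in Inh-Lamp5 (1.11), the latter lost in 3 of the 4 fits that left out a library.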

How the results depend on the processing

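With DESeq2 in place of edgeR the calls between strains numbered 103 in all, with 17 in Exc-DG, 15 in Exc-CA1-Galntl6, 7 in Exc-CA1-Fras1, 3 in Exc-CA1-Camk2d, 10 in Exc-CA3, 6 in Exc-ENT, 7 in Exc-Gpc6, 1 in Exc-Cdh12, 3 in Inh-CGE, 4 in Inh-Lamp5, 11 in NN-Astro, 6 in NN-ODC, 4 in NN-OPC, 2 in NN-MGC and 0 in NN-VLMC, where 8 genes had an unadjusted p under 0.05 in edgeR. DESeq2 called 2 genes in the interaction of excitatory neurons with interneurons and 20 peaks. Without a filter beyond 1 count, Exc-CA1-Camk2d had 13 calls, Exc-Cdh12 6, NN-MGC 9 and CR-CR 0 (10 at an unadjusted p under 0.05 in the edgeR fit reported), and NN-MGC had 7 among genes with counts in both strains. With the replicate block the calls numbered 223 in all, 0 in CR-CR and 8 in NN-VLMC, and 80 peaks were called. Without the replicate block the 5 contrasts called 42, 26, 20, 35 and 18 genes in the order reported. With crossed numbers as the block, chosen after seeing the data, Inh-MGE had 15. With no fold limit the contrasts called 53 genes (granule neurons against CA types), 51 (CA1 against CA3), 57 (interneurons) and 35 (MGE against CGE). At gene starts alone 5 peaks were called. The cause of these changes was not tested.

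Leaving out each library in turn gave 141 to 198 calls in all. The ranges were 17 to 25 in Exc-DG, 21 to 23 in Exc-CA1-Galntl6, 13 to 17 in Exc-CA1-Fras1, 0 to 15 in Exc-CA1-Camk2d, 14 to 16 in Exc-CA3, 11 to 16 in Exc-ENT, 6 to 14 in Exc-Gpc6, 1 to 6 in Exc-Cdh12, 4 to 12 in Inh-MGE, 0 to 6 in Inh-CGE, 5 to 8 in Inh-Lamp5, 1 to 5 in CR-CR, 11 to 24 in NN-Astro, 6 to 15 in NN-ODC, 8 to 11 in NN-OPC, 4 to 12 in NN-MGC and 1 to 7 in NN-VLMC. They were 42 to 44, 26 to 27, 20 to 25, 34 to 36 and 17 to 20 in the 5 contrasts in the order reported, 1 to 5 and 0 to 2 in the interactions and 50 to 62 for peaks. The lone library of a strain is then assumed to vary like the other strain. No named result changed direction under these alternatives.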
